A study of Oryza sativa with 4 samples.

Results

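Drought-only regions of acetylated histone H4 in rice leaves were taken from a pair of H4K5ac peak lists, one for drought-stressed and one for well-watered plants. A region was drought-only when a peak of the drought-stressed list on chromosomes 1 to 12 shared no base pair with any well-watered peak. There were 1272 such regions among 26063 drought-stressed peaks, which is 4.88% of the list (95% Wilson interval 4.63% to 5.15%), and 55030 peaks were listed in both conditions together. The members were thus chosen by the positions of peaks in both lists, and neither their absence from the well-watered list nor their number is a finding. The reverse share, well-watered peaks that met no drought-stressed peak, was 15.1% (4360 of 28794).

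The plants were the cultivar Hanyou73, a rice hybrid, sampled as leaves at the grain filling stage. The drought-stressed group and the well-watered group each had 2 libraries, precipitated with an antibody against H4K5ac. Both libraries of a group point to the same list, so there is no value per library, no error between replicates, and no test between conditions is possible. The genome build is not given in the sources used here, nor are the length and severity of the stress, the depth of sequencing, or whether the libraries came from separate plants. A list from whole leaves cannot tell apart acetylation in few cells from weak acetylation in many.

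H4K5ac is acetylation of lysine 5 in the N-terminal tail of histone H4. Acetyltransferases add the group, which removes the positive charge of the lysine, and deacetylases take it off. Newly made H4 carries this mark when it is deposited on DNA, and on mature chromatin the mark is found around active promoters, where proteins with bromodomains can bind it. A peak is a stretch of DNA where a peak caller found more precipitated fragments than its model allows for, so whether a weak stretch enters a list depends on the calling threshold as well as on the chromatin.

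The drought-only peaks were narrow and low in score. Their median width was 189 bp (interquartile range 161 to 250 bp), against 585 bp for shared drought-stressed peaks (397 to 739 bp), and their total length was 276 kb, or 1.85% of the length covered by the drought-stressed list. The narrowest measured 145 bp, which is also the shortest width in that list, and 721 of the 1272 were at most 200 bp wide. Only 14 were wider than 500 bp. The share that was drought-only differed with width: it was 30.7% among drought-stressed peaks of at most 200 bp, 15.8% from there to 250 bp, 5.18% between 300 and 400 bp, and 0.0887% above 500 bp. The median score, the authors' own value per peak on a scale that is not stated, was 45 against 371 for shared peaks, and 108 drought-only peaks scored above 100. Width and score both enter the calling of a peak, so these values describe what the rule selected. For the comparisons below, shared drought-stressed peaks were weighted to the width distribution of the drought-only peaks in 10 bp steps. At these widths the median score was 45 for drought-only and 76 for shared peaks. Membership rested on the low-scored part of both lists: 74 drought-only peaks were left with drought-stressed peaks from the 25th percentile of score upward, and 4472 were found with only well-watered peaks from that list's 25th percentile upward.

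A few drought-only peaks stood out in score or width. The highest-scored one, on chromosome 6 from 19391 to 19733 (343 bp, score 683), was 12468 bp away from any well-watered peak. The nearest one had a score of 33525 in the well-watered list. The next entry of the drought-stressed list, from 22911 to 23090 with a score of 80, was drought-only as well. The 4 that followed in score were less far from a well-watered peak. They lay on chromosome 1 from 39126998 to 39127166 (score 310, gap 4422 bp), chromosome 6 from 15472901 to 15473058 (score 265, gap 8212 bp), chromosome 10 from 3214304 to 3214493 (score 231, gap 163 bp) and chromosome 5 from 10430404 to 10430554 (score 222, gap 9716 bp). Of these 5, the peak on chromosome 10 was the one that flanked an existing region.

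The widest drought-only peaks were not the highest-scored ones. The first, on chromosome 9 from 15027709 to 15028480, measured 772 bp, scored 74 and was 16730 bp away from any well-watered peak. The others were on chromosome 4 from 23244492 to 23245187 (696 bp, score 80), chromosome 8 from 19164401 to 19165092 (692 bp, score 42), chromosome 6 from 14052911 to 14053566 (656 bp, score 62) and chromosome 3 from 25904122 to 25904773 (652 bp, score 99). The peak on chromosome 8 lay 978 bp from a well-watered-only peak, whereas the well-watered list held nothing within 1 kb of the other 4.

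The rule has a sharp edge, since 1 shared base pair decides membership. The 5 members nearest to a well-watered peak lay 3 to 12 bp from it. They were on chromosome 3 from 6933043 to 6933192 and from 28061501 to 28061665, on chromosome 7 from 10716282 to 10716438, on chromosome 1 from 34356823 to 34357099, and on chromosome 2 from 26011547 to 26011803. The well-watered neighbour of each was itself without a drought-stressed counterpart. Just outside the rule were shared peaks with 1 to 4 bp of overlap, on chromosome 3 from 29119641 to 29119866 (1 bp), on chromosome 9 from 5153581 to 5153740 (1 bp) and from 10846203 to 10846351 (2 bp), on chromosome 2 from 29726301 to 29726492 (3 bp), and on chromosome 11 from 19625859 to 19626104 (4 bp). The 5 members beside the edge scored 40 to 50, and these shared peaks 30 to 41. In all, 32 members lay less than 50 bp from a well-watered peak, and 67 shared peaks overlapped one by at most 50 bp.

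The distance to the nearest well-watered peak had a median of 2777 bp (95% interval 2491 to 3200 bp) and an interquartile range of 542 to 7384 bp. Shared drought-stressed peaks of like width lay a median of 2846 bp from the nearest well-watered peak that they did not overlap. The medians were close, but the distributions differed at both ends. Within 200 bp lay 11.2% of the drought-only peaks (9.55% to 13.01%), against 3.78% of shared peaks of like width. Within 1 kb the shares were 33.2% (422 peaks, 30.6% to 35.8%) of the drought-only and 29.2% of the shared peaks. Within 10 kb the order was turned, with 81.4% (79.1% to 83.4%) of the drought-only against 85.0% of the shared peaks.

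**Figure D1:**
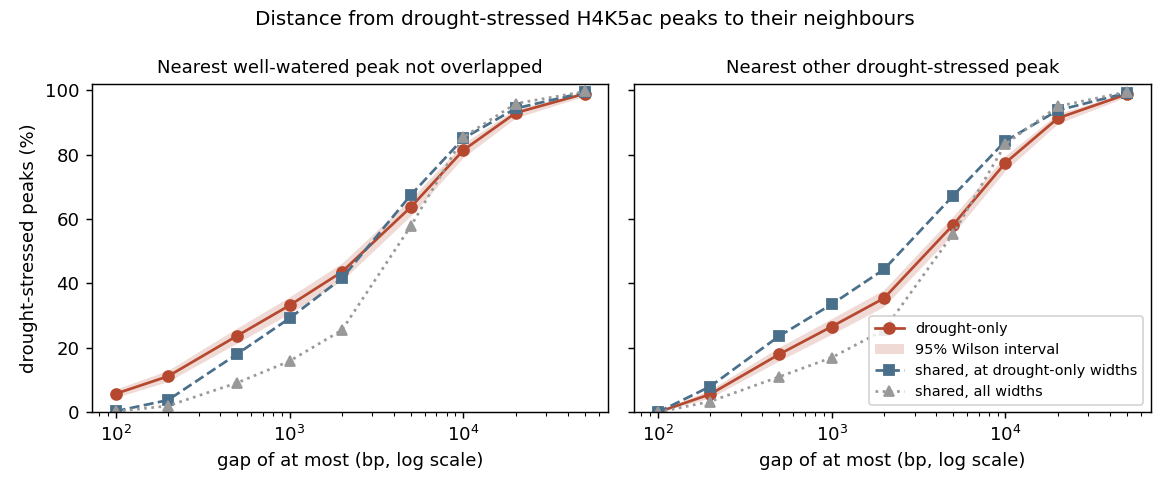
Share of drought-stressed peaks (%) whose gap to the nearest neighbour is at most the distance on the log-scaled horizontal axis (bp), for well-watered neighbours not overlapped (left) and other drought-stressed peaks (right). The drought-only line starts higher than the width-weighted line of shared peaks on the left (11.2% against 3.78% at 200 bp) and runs below it on the right (26.6% against 33.5% at 1 kb).

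The excess at short range came from distances that do not occur within a list. No 2 peaks of the drought-stressed list were closer than 146 bp, and none of the well-watered list closer than 140 bp. The gap of a drought-only peak to a well-watered peak has no such minimum. A shared peak is held off, since it already overlaps one well-watered peak and the next is at least 140 bp from that one. The difference at short range is thus largely set by the rule: 103 drought-only peaks (8.10%) lay less than 146 bp from a well-watered peak, against 0.840% of shared peaks of like width. Counting only gaps from 146 bp to 1 kb, 319 of all 1272 drought-only peaks (25.1%, 22.8% to 27.5%) and 28.3% of the shared peaks flanked a well-watered peak. The 103 drought-only peaks with shorter gaps stayed in the total, which lowers their share, so the order of these shares has no meaning. The larger drought-only share within 1 kb therefore rested on gaps below 146 bp. The order of the shares within 1 kb also differed under the score thresholds, for which no intervals were computed. With drought-stressed peaks from the 25th percentile of score upward, 74 drought-only peaks were left. Of these, 27.0% had a well-watered peak within 1 kb, against 32.0% of shared peaks of like width. The median distance of the 74 was 4620 bp, and a share of so few peaks has a wide counting error. With well-watered peaks from their 25th percentile upward the shares were 15.1% of drought-only and 19.5% of shared peaks, and the median was 5183 bp. With lists of equal length they were 23.4% of drought-only and 25.7% of shared peaks, and the median was 4301 bp.

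Set against their own list, the drought-only peaks lay farther from their neighbours than shared peaks of like width did. The median gap to the nearest other drought-stressed peak was 3989 bp (3637 to 4389 bp), against 2686 bp for shared peaks of like width. For shared peaks of all widths it was larger, 4523 bp. Another drought-stressed peak lay within 1 kb of 26.6% of them (338 peaks, 24.2% to 29.1%), against 33.5% of shared peaks of like width and 17.0% of shared peaks of all widths. At this distance the drought-only peaks were between both groups of shared peaks. Within 10 kb they were below both, with 77.4% against 84.2% at like width and 83.3% at all widths.

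The places of the drought-only peaks fell into 4 kinds. The most frequent was 1 to 10 kb from a well-watered peak, with 613 peaks (48.2%, 45.5% to 50.9%), against 55.8% of shared peaks of like width. A further 280 (22.0%) lay within 1 kb of a well-watered peak that had a drought-stressed counterpart of its own, against 22.7%. Within 1 kb of a well-watered-only peak lay 142 (11.2%, 9.55% to 13.01%), against 6.47%. More than 10 kb from any well-watered peak lay 237 (18.6%, 16.6% to 20.9%), against 14.99%. The median widths of the 4 kinds, 184 to 192 bp, and median scores, 40 to 51, were much alike.

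**Figure D2:**
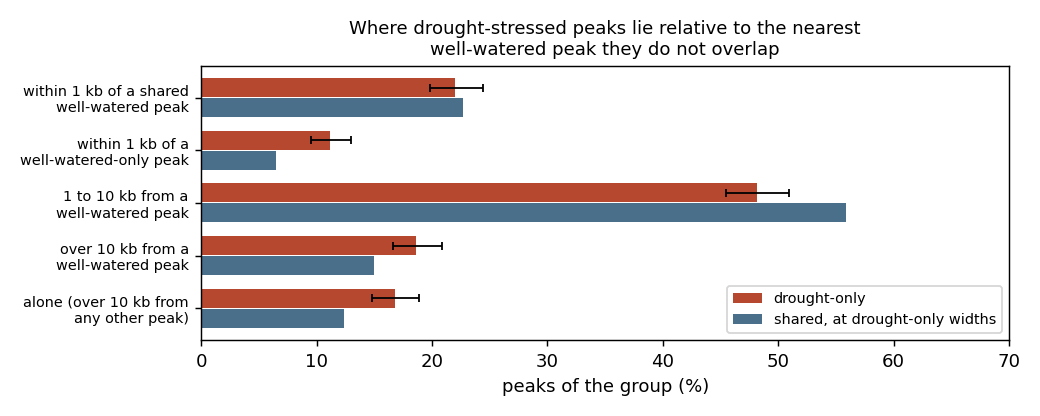
Share of peaks (%) in each kind of place relative to the nearest well-watered peak not overlapped, for drought-only peaks (bars with 95% Wilson intervals) and for shared drought-stressed peaks weighted to the same widths. Beside well-watered-only peaks the shares are 11.2% and 6.47%. The peaks in the bottom pair of bars, which stood alone, are also counted in the pair above it.

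Among the 422 flanking peaks, the nearest well-watered peak was well-watered-only in 33.6% (29.3% to 38.3%), against 22.2% for flanking shared peaks of like width. These 142 cases were mostly small peaks side by side, one from each list. In 130 of them each was the nearest peak of the other list to its partner. The drought-only peak had a median width of 190 bp and the well-watered partner one of 219 bp, and in 58 cases the drought-only peak was the wider. Within their own lists both were low in score, with medians of 40 for the drought-only peaks and 45.5 for the well-watered partners. The gap between the partners had a median of 224 bp (interquartile range 97 to 478 bp), and the midpoints were a median of 452 bp apart. In 48 of the 142 cases the gap was below the 146 bp minimum found within the drought-stressed list. The next drought-stressed peak was far off, at a median of 4727 bp.

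The 280 peaks beside a shared well-watered peak stood next to a region present in both lists. In 277 of them the drought-stressed counterpart of that region was also the next entry on that side in the drought-stressed list. The regions so flanked measured a median of 521 bp in the well-watered list, where all shared regions measured 665 bp. Their drought-stressed counterparts had a median score of 141, below the 371 of all shared drought-stressed peaks. The drought-only peak scored higher than the counterpart in 31 of the 280 cases. The counterpart's edge that faced the drought-only peak lay a median of 30 bp inside the well-watered edge (22 to 40 bp), and its far edge a median of 10.5 bp inside (7 to 16 bp). Over 22676 edges of other 1-to-1 pairs of like width the median was 18 bp (18 to 19 bp). The facing edge was withdrawn by 100 bp or more in 71 cases and the far edge in 47. No drought-stressed peak was closer than 146 bp to another, so a withdrawn facing edge leaves more room for a flanking peak. The part of this in the difference was not tested.

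Flanks were found on both sides. The nearest well-watered peak lay at lower coordinates in 216 of the 422 flanking cases and at higher coordinates in 206. Well-watered peaks within 1 kb on both sides were found for 30 drought-only peaks.

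The regions that stood alone, more than 10 kb from every other peak of either list, numbered 213 (16.7%, 14.8% to 18.9%), against 12.4% of shared peaks of like width. Their median width was 185 bp and their median score 51. The 5 drought-only peaks farthest from a well-watered peak were on chromosome 7 from 14229952 to 14230226 (gap 94716 bp), chromosome 4 from 17752603 to 17752761 (85207 bp), chromosome 2 from 9701896 to 9702190 (78005 bp) and from 9696965 to 9697120 (73074 bp), and chromosome 7 from 14208068 to 14208222 (72832 bp). They scored 40 to 93. The pair on chromosome 2 lay 4775 bp apart and the pair on chromosome 7 lay 21729 bp apart. The peak on chromosome 4 had another drought-only peak 12715 bp away, so each of the 5 had one within 50 kb.

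The stretches free of well-watered peaks that held drought-only peaks were longer than all such stretches counted once each, but drought-only peaks were fewer per Mb in longer stretches. The free stretch around a drought-only peak had a median length of 17111 bp, against 6703 bp over all 28782 such stretches. A longer stretch has more room, and per Mb of free stretch the number was lower in the longest ones: 4.40 drought-only peaks per Mb in stretches of 5 to 10 kb, 3.58 in stretches of 20 to 50 kb, and 1.67 in those over 100 kb. The 221 stretches over 100 kb held 53 drought-only peaks. In 1118 stretches there was 1 drought-only peak, in 67 there were 2, in 5 there were 3 and in 1 there were 4.

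Within the free stretches, drought-only peaks were most concentrated next to an end, though 77.9% lay farther in. The distance to the nearer bounding peak was under 5% of the room on both sides in 281 of 1271 cases (22.1%, 19.9% to 24.5%), and each of the other 9 steps of 5% held 7.32% to 9.99%. For well-watered-only peaks between drought-stressed peaks the first step held 14.9%, in the lists as deposited. The part of gaps below 146 bp in the first step was not tested.

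**Figure D3:**
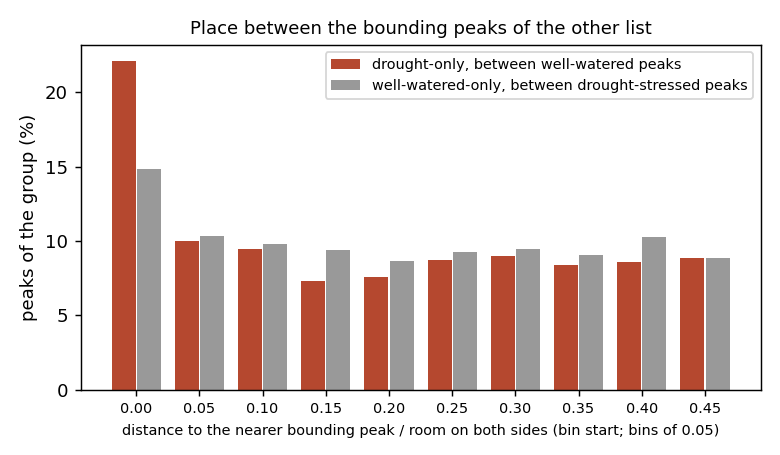
Place of drought-only peaks between the bounding well-watered peaks, and of well-watered-only peaks between the bounding drought-stressed peaks, as the share of peaks (%) in each 0.05 step of the distance to the nearer bounding peak divided by the room on both sides. The first step, next to a bounding peak, holds 22.1% of drought-only and 14.9% of well-watered-only peaks, and the other steps of the drought-only peaks hold 7.32% to 9.99%.

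In the lists as deposited, drought-only peaks were closer to the opposite list than their mirror image, the 4360 well-watered-only peaks, but not with lists of equal length. At most 1 kb from the opposite list lay 33.2% of drought-only peaks and 23.6% (22.4% to 24.9%) of well-watered-only peaks. Below 146 bp the drought-only share was 8.10% and the well-watered-only share 2.78%, while 16.7% of the drought-only and 12.04% of the well-watered-only peaks stood alone. The well-watered list holds more peaks. Shortening it by score to the length of the drought-stressed list also changed both groups, to 1960 drought-only and 2366 well-watered-only peaks. Of these, 23.4% of drought-only and 23.0% of well-watered-only peaks lay at most 1 kb from the opposite list. The median distances were 4301 bp for drought-only and 3916 bp for well-watered-only peaks. The part of list length, apart from score and membership, was not tested.

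Peak density around the drought-only peaks was slightly low. Within 50 kb of the midpoint there were on average 8.78 well-watered peaks (SD 4.61 over 1272 regions), against 9.44 around shared peaks of like width, with a median of 9 for both. Other drought-stressed peaks numbered 7.83 (SD 4.15), against 8.65. Within 20 kb the means were 3.62 (SD 2.39) well-watered peaks, against 4.01. No test was made of these differences. No well-watered peak lay within 50 kb of 14 drought-only peaks.

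Drought-only peaks were a larger part of the list where peaks were sparse, and more numerous where they were dense, in the lists as deposited. The 367 complete 1 Mb windows were split into quintiles by their number of well-watered peaks. In the sparsest quintile (19 to 48 well-watered peaks per window) 7.34% of the drought-stressed peaks were drought-only (6.39% to 8.41%), and the share went down step by step to 4.04% (3.63% to 4.50%) in the densest (106 to 144). The number per window went the other way, 2.55 in the sparsest and 4.34 in the densest. Narrow peaks were more common in sparse windows, at 21.2% of drought-stressed peaks of up to 250 bp in the sparsest quintile and 12.5% in the densest. Among such narrow peaks the drought-only share was 26.4% (22.9% to 30.3%) in the sparsest and 22.9% (20.3% to 25.6%) in the densest, with overlapping intervals. This difference was 3.57 percentage points, against 3.30 over all peaks, but the shares it was taken from were much larger. Relative to the share in the sparsest quintile, the decline was smaller among narrow peaks (26.4% to 22.9%) than over all peaks (7.34% to 4.04%). The difference between the sparsest and the densest quintile depended on the lists. With drought-stressed peaks from the 25th percentile of score upward it was 0.21 percentage points in place of 3.30. That threshold left 74 drought-only peaks, so the shares themselves were smaller. With well-watered peaks from their 25th percentile upward the difference was 4.75 percentage points, and with lists of equal length 4.90.

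**Figure D4:**
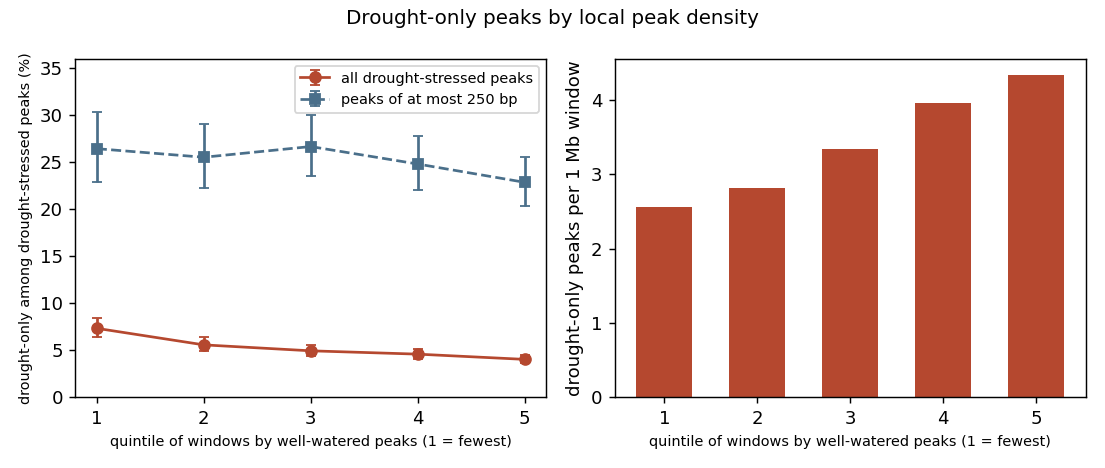
Left, share of drought-stressed peaks that are drought-only (%, bars are 95% Wilson intervals) in quintiles of 1 Mb windows ordered by their number of well-watered peaks, for all peaks and for peaks of at most 250 bp. Right, drought-only peaks per window. Over all peaks the share goes down to 4.04% in the densest quintile, while the number per window goes up to 4.34.

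Along the chromosomes the drought-only share varied, and in 10 segments its order was not the same among narrow peaks. Among classes of distance to a chromosome end, the nearest class was lowest over all peaks and among narrow ones. Each chromosome was cut into 10 segments of equal length, numbered from the lowest coordinates. The share among all drought-stressed peaks was 4.23% in segment 1, 6.41% (5.38% to 7.63%) in segment 4 and 6.07% in segment 5, 4.19% in segment 6, 5.72% (4.94% to 6.61%) in segment 8 and 3.90% (3.32% to 4.58%) in segment 10. Among peaks of at most 250 bp the order was another: segment 8 had the highest share, 29.5%, and segment 6 the lowest, 21.8%, with 24.9% in segment 4 and 23.5% in segment 10. Within 0.5 Mb of a chromosome end, 35 of 1144 drought-stressed peaks were drought-only (3.06%, 2.21% to 4.23%), the lowest of the distance classes used. Among peaks of at most 250 bp this class had 19.9%, and the others 23.1% to 26.4%. No intervals were computed for the narrow-peak shares of segments and distance classes, and whether their order exceeds counting error was not tested. A chromosome was taken to end with its last listed peak.

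**Figure D5:**
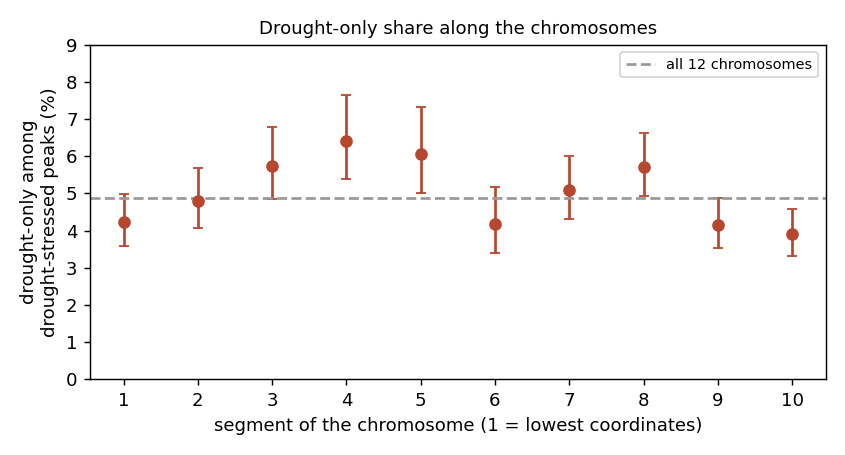
Drought-only peaks as a share of drought-stressed peaks (%, bars are 95% Wilson intervals) in 10 equal segments of chromosome length over 12 chromosomes, with the overall 4.88% as a dashed line. Segment 4 reaches 6.41% and segment 10 has 3.90%.

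The chromosomes differed little in the drought-only share, and more in where the drought-only peaks lay. The drought-only share ran from 4.49% on chromosome 3 (145 peaks, 3.83% to 5.26%) to 5.43% on chromosome 7 (110 peaks, 4.53% to 6.51%), so that each interval held the overall share. The numbers ran from 71 on chromosome 10 to 177 on chromosome 1. Chromosome 7 also had the largest share within 1 kb of a well-watered peak, 41.8%, and chromosome 2 the smallest, 24.2%. The share standing alone was highest on chromosome 5, at 26.0%, and lowest on chromosome 3, at 11.03%. No intervals were computed for the shares within 1 kb and alone.

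In the lists as deposited, drought-only peaks were mostly single. The nearest other drought-only peak was a median of 92611 bp away (85520 to 100838 bp), and 152 of 1272 (11.9%, 10.3% to 13.8%) had one within 10 kb. This share depended on how many peaks the rule left: it was 0 of the 74 found with drought-stressed peaks from the 25th percentile of score upward, 35.6% of the 4472 found with well-watered peaks from theirs, and 17.9% of the 1960 found with lists of equal length. Next to a drought-only peak, the neighbouring entries of the drought-stressed list were drought-only in 7.79% of cases (198 of 2543), against 6.15% next to shared peaks of like width. Among neighbours of at most 250 bp the shares were 28.8% (148 of 513) and 23.0%. In the 1 Mb windows the number ran from 0, in 21 windows, to 12, with a mean of 3.40 (SD 2.09). The fullest window was chromosome 4 from 28 to 29 Mb, where 12 of 93 drought-stressed peaks (12.9%, 7.54% to 21.2%) were drought-only. After it came chromosome 7 from 9 to 10 Mb and chromosome 8 from 7 to 8 Mb, with 10 each, of 82 and 71 peaks.

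Some lay very close together. There were 59 drought-only peaks within 1 kb of another, in 28 pairs and 1 group of 3, which spanned a median of 767 bp. Of these 59, 36 were more than 1 kb from any well-watered peak. The group of 3 was on chromosome 7, with peaks from 927593 to 927797 (score 111), from 927978 to 928263 (score 60) and from 928662 to 928834 (score 27), 894 to 1925 bp from the nearest well-watered peak. It belonged to one of the densest neighbourhoods: 5 drought-only peaks within 9.94 kb on chromosome 7, from 918896 to 928834. Around the first of these, on 50 kb to either side, there were 9 drought-stressed and 9 well-watered peaks, and 5 of the well-watered ones were well-watered-only. The lists therefore differed in both directions there.

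The other dense neighbourhoods held 6 drought-only peaks each. On chromosome 8 they lay from 7153260 to 7207227, and the 50 kb on either side of the peak from 7167961 to 7168215 held 9 drought-stressed and 5 well-watered peaks. Scores there were 35 to 93 and widths 151 to 255 bp. On chromosome 7 they lay from 9876004 to 9953283, where the 50 kb on either side of the peak from 9912092 to 9912243 held 15 drought-stressed and 9 well-watered peaks. These were stronger than most drought-only peaks, with scores of 68 to 205. One of them, from 9952943 to 9953283, lay 191 bp from a shared region.

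Of neighbouring entries that were all drought-only, 78 runs held 2, 9 held 3 and 1 held 4, while 1085 peaks stood as single entries. With 4.88% of the list drought-only, most would be single in a random order of the list too. That most were single is therefore no trait of the members. Whether the runs were more frequent than in a random order was not tested. The run of 4 was on chromosome 2 from 9642053 to 9702190, in 60.1 kb with no well-watered peak, and included both remote peaks of that chromosome. Its scores were 35 to 62. A run of 3 further along chromosome 2, from 21801136 to 21869919, had gaps of 12648 to 57808 bp to the nearest well-watered peak. Another remote run was on chromosome 1 from 21380890 to 21470275, with gaps of 11591 to 25438 bp. In contrast, the run on chromosome 5 from 19437316 to 19449692 flanked well-watered peaks at 28 to 252 bp, and that on chromosome 6 from 4618169 to 4642502 at 96 to 654 bp. The other runs of 3 were on chromosome 4 from 35400011 to 35414282, on chromosome 7 from 927593 to 928834, from 9945410 to 9953283 and from 11433071 to 11468617, and on chromosome 8 from 7202140 to 7207227. Runs thus occurred both beside existing regions and far from them.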

How the data were processed

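H4K5ac ChIP-seq of rice leaves gave 1 peak list per condition. Per the labels, replicates share the list of their condition, and per the files' own peak names each list came from a single alignment file. BWA, SAMtools, MACS2 and deepTools were used, per the submitters' processing notes. The genome build is not given in the sources used here, nor are the calling threshold and any input control. The score deposited by the authors has no stated scale and was used within a list only. Depth is unknown.

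Positions were compared with Python 3.11.15, numpy 2.4.6, pandas 2.3.3 and scipy 1.17.1. The member count equalled that of bedtools 2.31.1, and the code was tested on simulated data. Gaps are base pairs between the nearest ends, and coordinates are 1-based. Shared drought-stressed peaks were weighted to the drought-only widths in 10 bp strata, which all 1272 members could enter. Wilson and order-statistic 95% intervals take neighbouring peaks as independent and cover nothing but counting error.

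Members, comparisons and settings were chosen with earlier results of these data known. The regions named are the 5 highest in score, width, distance, closeness and number of other members within 50 kb, the runs of 3 or more, and the 5 shared peaks with least overlap. Named windows, segments and chromosomes were picked after their values were seen. The gene table at hand is not of a stated common build, so no gene or sequence was assigned.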

Additional observations from a re-analysis of the deposited data

How the results depend on the processing

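Which peaks are drought-only depended on the score threshold. With only drought-stressed peaks from the 25th percentile of score upward, there were 74 drought-only peaks, with 27.0% within 1 kb of a well-watered peak, a median distance of 4620 bp, 21.6% within 1 kb of another drought-stressed peak, 27.0% alone, 0.00% with another within 10 kb, and 0.21 percentage points between sparse and dense windows in place of 3.30. With only well-watered peaks from the 25th percentile upward, there were 4472, with 15.1% within 1 kb, a median distance of 5183 bp, 7 well-watered peaks within 50 kb, 35.6% with another within 10 kb and 4.75 percentage points. With equal peak numbers there were 1960, with 23.4%, 4301 bp, 17.9% and 4.90 percentage points. A tolerance of 100 bp gave 29.1% within 1 kb and a median distance of 3205 bp, a tolerance of 1 kb 9.76% with another within 10 kb. Other distances changed the shares by construction: 23.7% and 43.6% lay within 500 and 2000 bp of a well-watered peak, 18.0% and 35.4% of another drought-stressed peak, 7.94% and 18.1% had another within 5 and 20 kb, 33.0% and 6.29% were alone at 5 and 20 kb, and 3 and 17 well-watered peaks lay within 20 and 100 kb. Weighting shared peaks by score as well as width gave 28.2% within 1 kb of a well-watered peak they did not overlap and 34.6% within 1 kb of another drought-stressed peak. Without weighting for width, shared peaks had 15.9% within 1 kb of a well-watered peak and 17.0% within 1 kb of another drought-stressed peak. Shared peaks of like width had 32.0%, 19.5% and 25.7% within 1 kb of a well-watered peak they did not overlap with the drought-stressed threshold, the well-watered threshold and equal numbers. These 3 values, the well-watered-only share with equal numbers (23.0%), the gaps of at least 146 bp (25.1%), the matching tolerance (1169 members) and the split of narrow peaks by density were added after the data were seen. Of 178 recomputed values, 112 came from leaving out 1 chromosome, merging close peaks or adding the unplaced sequences, which alter the lists little, and these all stayed within their counting interval or, for the number of members, within 1.5 times. Of the other 66, 37 moved further. Only the difference between sparse and dense windows was scored for a change of sign, and it kept its sign. The order of drought-only and shared peaks in the share within 1 kb of a well-watered peak was not scored in this way. That order did turn under each score threshold and with equal numbers. Leaving out each chromosome gave 1095 to 1201 members and 32.4% to 34.2% within 1 kb. Merging peaks within 100 bp changed nothing, as no list holds such peaks. No paired analysis was possible because the lists hold no values per replicate, which also kept any replicate from being left out. Causes of these shifts other than the construction of each alternative were not tested.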

Other observations

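The unplaced sequences Un and Sy, outside the 12 chromosomes, held 84 drought-stressed peaks, of which 7 shared no base pair with a well-watered peak. On Sy these were 3 of 33 peaks, among them the one from 396158 to 396341 with a score of 245, which lay 895 bp from a well-watered peak. On Un they were 4 of 51, with scores of 67 to 154 and gaps of 580 to 2904 bp.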
